A study of Mus musculus with 12 samples.

Results

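Genes of the auricular cartilage were followed in the ears of Spade/Spade mice and of wild-type littermates. The list holds 34 named genes of chondrocytes and their matrix, and each was read by the probe set with the highest mean among those that name only that gene. Such a probe set exists on the array for 33 of them, Clec3a being the exception, and for 18194 genes in all. A level of 4 or more on the log2 scale on at least 2 of 12 arrays was asked of a gene before it was tested, and 28 members and 11984 genes in all met it.

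The ear flap is held up by a plate of elastic cartilage under the skin. Chondrocytes lay down a matrix of type II collagen fibrils with types IX and XI on and within them, fill it with the proteoglycan aggrecan bound to hyaluronan through link protein, and add matrilins and other adaptors that tie these networks together. SOX9, with SOX5 and SOX6, drives transcription of many of these genes, and elastic cartilage adds elastin on microfibrils and does not normally turn to bone.

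RNA from whole ears was read on 12 Affymetrix expression arrays in 6 groups: Spade/Spade and wild-type ears at 2, 4 and 6 weeks, 2 arrays in each group. In the published study, Spade is an activating mutation of Jak1, a kinase that passes cytokine signals to STAT factors, and homozygotes develop dermatitis. No transgene, treatment or further allele is named for any group. Cartilage is one tissue of the ear beside skin, hair follicles, muscle and fat, and since the labels do not tell animals apart, a p-value here reflects the spread of arrays, which may be technical.

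The correlation between the arrays of a group was 0.939 for 2-week Spade ears and 0.985 or more elsewhere. In that group replicate 3 stood apart: on its array the mean log2 level of hair shaft and follicle markers was 12.1, against 3.95 to 6.93 on the other 11, and that of skeletal muscle markers was 9.24, against 11.62 to 12.84. Numbers in the sample descriptions put all 2-week arrays in a range of their own, so any change from 2 weeks and that range cannot be told apart. Of the remaining ranges, the lower held both 4-week Spade arrays and the higher both 6-week Spade arrays, so that change and the range are confounded as well. Wild-type ears at 4 and 6 weeks had replicate 1 in the lower and replicate 3 in the higher, so genotype and range are unbalanced at those ages. In whole tissue, fewer cartilage cells and less RNA per cartilage cell cannot be told apart either.

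Cartilage was well represented on every array. Of the 34 genes, 28 were called present on all 12 arrays, Col2a1, Acan, Col9a1, Cnmd, Sox9 and Ucma among them. Of the 5 members too low to be tested, Matn1, which codes for a matrilin of hyaline cartilage, and Ihh, a hedgehog ligand of growth-plate cartilage, lay at the array floor of 2.14 on all 12 arrays. Col10a1, the collagen of hypertrophic chondrocytes, reached at most 3.92 and was called present on 3 arrays. Epyc, a small leucine-rich proteoglycan, stayed at 3.52 to 4.08 although it was called present on 12, and Scrg1, a small secreted protein of chondrocytes, exceeded 4 on a single array, Spade 2-week replicate 3, at 5.32.

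The promoters of 5 members that changed with age are shown because they belong to genes that moved in opposite directions in the same ears. Each window runs from 250 bases before to 50 bases after a transcript start that RefSeq's table gives for the gene, read 5′ to 3′ on the gene's strand in build GRCm38.p6, and capitals mark ACAAT or its reverse complement ATTGT, the core bound by SOX proteins. Col9a2, Col11a1 and Hapln1 were the genes lower at 6 weeks, with windows at chr4:121039316-121039615, plus strand, chr3:114030290-114030589, plus strand, and chr13:89540386-89540685, plus strand. The start is the outermost of the gene for Col9a2 and Cytl1, and lies 61 bases inside it for Col11a1, 107 for Hapln1 and 835181 for Sox5, whose window thus belongs to a start within the gene. Sox5 and Cytl1 were the genes higher at 6 weeks, with windows at chr6:143947057-143947356, minus strand, and chr5:37735269-37735568, plus strand.
Col9a2: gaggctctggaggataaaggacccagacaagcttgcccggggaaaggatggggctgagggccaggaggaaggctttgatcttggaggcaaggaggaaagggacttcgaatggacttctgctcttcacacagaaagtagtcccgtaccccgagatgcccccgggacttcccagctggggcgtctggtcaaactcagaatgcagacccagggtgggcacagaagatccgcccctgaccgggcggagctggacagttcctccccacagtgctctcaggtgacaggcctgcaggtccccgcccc
Col11a1: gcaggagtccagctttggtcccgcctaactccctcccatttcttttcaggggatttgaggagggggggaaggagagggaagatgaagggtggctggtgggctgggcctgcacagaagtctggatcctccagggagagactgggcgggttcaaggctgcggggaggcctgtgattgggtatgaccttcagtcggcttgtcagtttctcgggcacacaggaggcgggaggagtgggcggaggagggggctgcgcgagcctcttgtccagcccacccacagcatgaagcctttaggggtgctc
Hapln1: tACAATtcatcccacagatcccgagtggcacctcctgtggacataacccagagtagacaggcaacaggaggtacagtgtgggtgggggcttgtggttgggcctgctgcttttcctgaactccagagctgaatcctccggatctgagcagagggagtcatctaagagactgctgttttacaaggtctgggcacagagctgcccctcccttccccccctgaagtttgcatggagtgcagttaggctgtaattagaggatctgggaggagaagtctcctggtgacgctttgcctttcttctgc
Sox5: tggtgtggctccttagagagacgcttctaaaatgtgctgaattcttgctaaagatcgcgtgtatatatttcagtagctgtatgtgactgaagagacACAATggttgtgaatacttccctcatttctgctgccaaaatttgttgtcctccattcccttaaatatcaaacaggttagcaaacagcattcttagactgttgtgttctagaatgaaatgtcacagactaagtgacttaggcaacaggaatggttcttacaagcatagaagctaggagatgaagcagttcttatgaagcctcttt
Cytl1: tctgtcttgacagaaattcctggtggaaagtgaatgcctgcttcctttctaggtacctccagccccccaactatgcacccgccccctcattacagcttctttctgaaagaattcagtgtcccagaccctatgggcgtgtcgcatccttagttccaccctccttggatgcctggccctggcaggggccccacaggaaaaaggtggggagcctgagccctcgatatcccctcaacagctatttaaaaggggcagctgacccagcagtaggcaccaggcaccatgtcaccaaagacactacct

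The SOX core occurred once in the window of Sox5, from base 97, and once in that of Hapln1, from base 2, and was absent from the other windows printed. Promoter windows were at hand for 26 members, 38 windows in all, of which 9, or 23.7%, held the core, against 31.0% of 32851 promoters of the same length. GC content was 61.7% in the Col9a2 window, 62.3% in that of Col11a1 and 39.7% in that of Sox5, and the quartiles over all windows were 45.7% and 61.7%. A match describes the letters only, and a window without one says nothing of the factor.

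Between 2 and 6 weeks Col2a1 and Col9a2 fell and Sox5 rose in both genotypes. In wild type alone Cytl1 rose past the threshold, and in Spade alone Comp rose and Col11a1, Hapln1 and Matn2 fell past it, which does not show that the genotypes differ. In wild-type ears 4 of 28 members passed the test (limma, adjusted p under 0.05), where 4.82% of all genes did; 2 of the 4 were higher and 2 lower, against 3.31% and 1.51% of all genes. In Spade ears 7 passed, where 9.94% of all genes did; 2 were higher and 5 lower, against 7.58% and 2.36% of all genes. Averaged over the genotypes in the same fit, a comparison added after the data were seen, 15 members passed, or 7 higher and 8 lower, where 24.1% of all genes did, 17.7% higher and 6.35% lower. At an unadjusted p under 0.05 stood 14 members in wild type, 15 in Spade and 19 averaged, against 24.6%, 29.6% and 38.7% of all genes. The median member stood at 0.24 in wild type and 0.23 in Spade, where the median of all genes was 0.10 and 0.12, and centring each array on its median brought the latter to -0.03 and -0.01. No called member changed direction under centring, quantile normalization or MAS5 signals.

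The number of calls depended on single arrays. Leaving out an array leaves 1 in its group, which then has no spread of its own. Any p-value or call for that group in such a fit borrows the spread of the other groups. In the fit without Spade 2-week replicate 3, 13 members passed in wild type, where 12.5% of all genes did, 9 in Spade, where 7.59% did, and 17 averaged over the genotypes, where 26.1% did. The same wild-type members passed when Spade 2-week replicate 2 was left out instead. In that comparison the differences stay as they are and only the spread shared by the groups changes. Every member lost its wild-type call when any 1 of the 2-week or 6-week wild-type arrays was left out. In Spade every member call was lost without either 6-week Spade array. Calls over all genes fell in these fits as well, so the loss is not particular to the members.

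**Figure D1:**
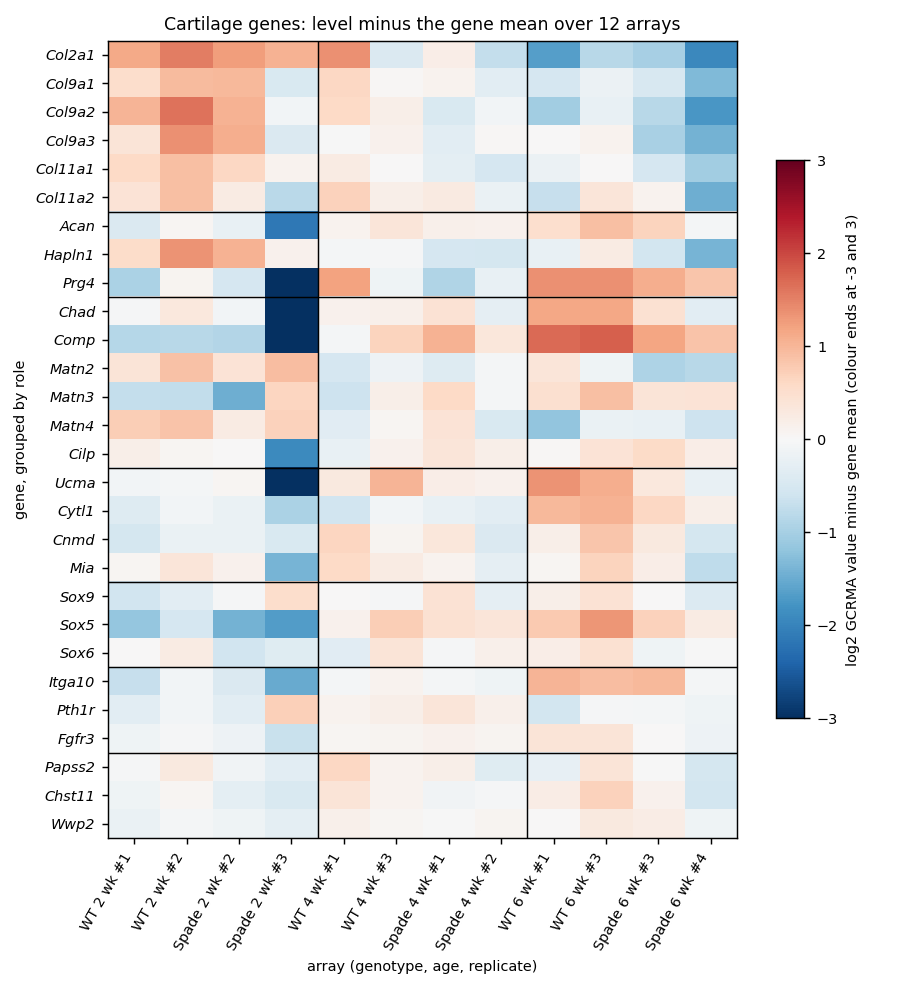
Level of the 28 tested cartilage genes on each of the 12 arrays, as the log2 GCRMA value minus the gene's mean over the arrays; horizontal lines separate the roles and vertical lines the ages. Col2a1, Col9a2 and Col11a1 are bluer at 6 than at 2 weeks in both genotypes, Comp, Prg4 and Sox5 do the reverse, and Spade 2-week replicate 3 is the darkest blue for Comp, Chad, Ucma and Prg4.

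Type II collagen showed the steepest fall of the members. Col2a1, which codes for the main fibril-forming collagen of cartilage, read 12.35 and 12.74 in wild-type ears at 2 weeks, 12.58 and 10.78 at 4 weeks and 9.57 and 10.39 at 6 weeks. In Spade ears it read 12.48 and 12.27, then 11.42 and 10.5, then 10.23 and 9.28. Every 2-week array lay above every 6-week array in both genotypes, while the 4-week wild-type arrays spanned most of that distance. The 6-week level was lower by 2.57 ± 0.58 on the log2 scale in wild type (SE of the limma fit, n = 2 arrays a group, adjusted p = 0.045), or 5.92-fold, and by 2.62 ± 0.58 in Spade (adjusted p = 0.029 in limma), or 6.16-fold. Without Spade 2-week replicate 3 the Spade fall was 6.63-fold but no longer passed (adjusted p = 0.061).

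The 3 chains of type IX collagen, which coats the type II fibril, were measured separately. Col9a2 read 9.16 and 9.77, 8.75 and 8.33, and 7.1 and 7.92 in wild-type ears at the 3 ages, and 9.18 and 8.07, 7.69 and 8.05, and 7.3 and 6.4 in Spade ears. It stepped down at each age in both genotypes. The fall from 2 to 6 weeks was 3.87-fold in wild type (adjusted p = 0.047 in limma) and 3.42-fold in Spade (adjusted p = 0.043). Col9a1 differed by -1.08 ± 0.45 and -1.17 ± 0.45 and Col9a3 by -0.82 ± 0.46 and -1.53 ± 0.46, none past the threshold in a single genotype, and both passed averaged over the genotypes at -1.12 (adjusted p = 0.035 in limma) and -1.17 (adjusted p = 0.032). Without Spade 2-week replicate 3, which leaves 1 array in that group, the Spade differences were -1.88 and -2.29.

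Type XI collagen sits inside the fibril and limits its width. Col11a1 read 12.09 and 12.39 in wild type at 2 weeks, 11.73 and 11.5 at 4 weeks and 11.3 and 11.49 at 6 weeks, and in Spade 12.11 and 11.59, 11.2 and 10.99, and 10.99 and 10.43. Its arrays moved down together with little spread. The fall was 2.21-fold in Spade (adjusted p = 0.022 in limma), and the wild-type difference of -0.85 ± 0.23 had an adjusted p of 0.069, or 0.033 without Spade 2-week replicate 3. Col11a2 differed by -0.83 ± 0.57 in wild type and -0.40 ± 0.57 in Spade, the latter -0.93 ± 0.65 without that array, and passed in no comparison. All 6 tested collagens were below 0 in both genotypes from 2 to 6 weeks, with medians of -0.96 and -1.35, while 37.6% and 38.2% of all genes were.

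Second probe sets gave the collagens the same direction. Those of Col9a1, Col9a3 and Col11a1 differed by -1.58, -0.61 and -1.55 in wild type and by -1.54, -0.22 and -1.25 in Spade. Over all members, 13 had more than 1 probe set past the level filter, and in 10 of them all probe sets shared a sign in each genotype from 2 to 6 weeks, the exceptions being Fgfr3, Sox6 and Wwp2.

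**Figure D2:**
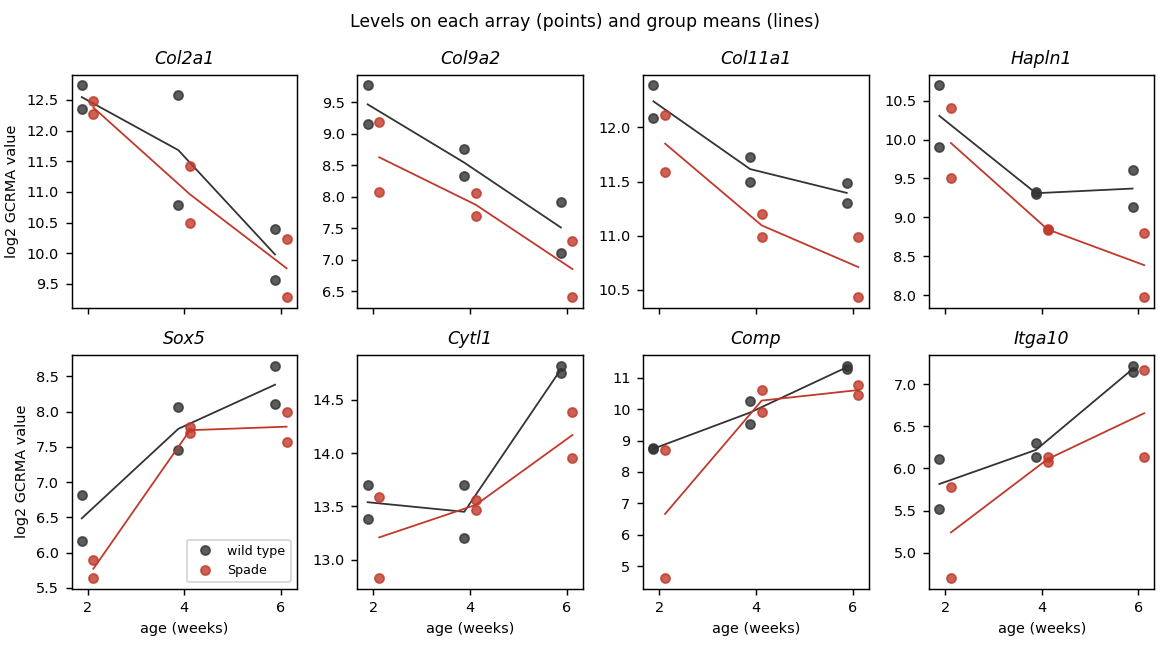
Log2 GCRMA value (vertical axis, own range in each panel) against age in weeks for 8 cartilage genes; points are arrays, 2 in each group, and lines join the group means of wild type (black) and Spade (red). Col2a1, Col9a2, Col11a1 and Hapln1 are lower at 6 than at 2 weeks in both genotypes, and Sox5, Cytl1, Comp and Itga10 are higher.

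Aggrecan and its link protein moved apart. Hapln1, the link protein that fixes aggrecan to hyaluronan, read 9.91 and 10.7, 9.3 and 9.32, and 9.13 and 9.61 in wild-type ears, and 10.41 and 9.5, 8.85 and 8.84, and 8.8 and 7.97 in Spade ears. Its 6-week Spade arrays lay below every other array of the study. The fall in Spade was 2.97-fold (adjusted p = 0.037 in limma), the wild-type difference was -0.93 ± 0.38 (adjusted p = 0.17), and the other 3 probe sets of the gene differed by -1.66 to -3.01 in wild type.

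Acan, the aggrecan core protein, read 11.27 and 11.76 in wild type at 2 weeks and 12.21 and 12.61 at 6 weeks, and in Spade 11.48 and 9.56, then 12.37 and 11.66. Every 6-week array of a genotype lay above its 2-week arrays, and the 2-week Spade arrays differed widely. The rise passed averaged over the genotypes, at 1.20 ± 0.37 (adjusted p = 0.044 in limma), and was 0.72 ± 0.20 without Spade 2-week replicate 3 (adjusted p = 0.034). Prg4, or lubricin, a glycoprotein that lowers friction on tissue surfaces, read 5.69 and 6.73 at 2 weeks and 8.01 and 8.0 at 6 weeks in wild type, and 6.14 and 3.41, then 7.73 and 7.46 in Spade. Both genotypes were higher at 6 weeks without overlap. It rose 4.94-fold averaged over the genotypes (adjusted p = 0.021 in limma), or 3.08-fold without Spade 2-week replicate 3 (adjusted p = 0.017), where its detection call was marginal. Its wild-type difference of 1.79 did not pass (adjusted p = 0.20 in limma). Leaving out a 2-week Spade array keeps that difference and changes only the spread that the groups share.

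Among the adaptor proteins, which join collagen to other matrix parts, Comp and the matrilins went different ways. Comp, a pentameric collagen-binding thrombospondin, read 8.72 and 8.76 in wild type at 2 weeks, 9.53 and 10.25 at 4 weeks and 11.28 and 11.38 at 6 weeks. In Spade it read 8.70 and 4.63, then 10.62 and 9.92, then 10.77 and 10.44. Group means stood higher at each later age in both genotypes, and 1 Spade array at 2 weeks lay far below its partner. The Spade rise was 15.38-fold with that array (adjusted p = 0.042 in limma) and 3.76-fold without it, when 1 array is left in the group. The wild-type difference was 2.59 ± 1.00 (adjusted p = 0.16) with it in the fit and 2.59 ± 0.28 without it.

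Matn2, a matrilin also made by many connective tissues, read 11.92 and 12.43, 11.04 and 11.4, and 11.91 and 11.41 in wild type, and 11.95 and 12.48, 11.16 and 11.49, and 10.62 and 10.72 in Spade. The genotypes ran together to 4 weeks, after which the wild-type arrays were higher than the Spade arrays. Matn2 fell 2.92-fold from 2 to 6 weeks in Spade (adjusted p = 0.013 in limma) and differed by -0.52 ± 0.26 in wild type (adjusted p = 0.25), and the difference between these changes, -1.03 ± 0.36, did not pass (adjusted p = 0.84). Its second probe set differed by -0.82 in wild type and -0.80 in Spade.

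Matn4 read 9.80 and 9.93 in wild type at 2 weeks and 7.89 and 8.88 at 6 weeks, and fell 2.27-fold averaged over the genotypes (adjusted p = 0.014 in limma). Matn3, a matrilin of growing cartilage, stayed low, from 4.39 to 6.77, and its change of 1.12 ± 0.42 did not pass (adjusted p = 0.081 in limma). Without Spade 2-week replicate 3 it was 1.65 ± 0.25. In Spade Matn3 read 4.39 and 6.5 at 2 weeks, the latter on that array, and 6.26 and 6.28 at 6 weeks. That array thus lay above both 6-week Spade arrays, and a Spade rise without it rests on the other 2-week array. Matn4 differed in wild type by -1.48 (adjusted p = 0.056 in limma), with an SE of 0.37 in the fit without Spade 2-week replicate 3. Chad, or chondroadherin, which binds type II collagen and integrins, differed by 1.36 ± 0.55 (adjusted p = 0.10), or 0.60 ± 0.22 without that array (adjusted p = 0.082), where its wild-type difference of 1.04 passed (adjusted p = 0.048 against 0.45), and Cilp, a protein of the intermediate layer of cartilage, by 0.73 ± 0.35 (adjusted p = 0.16), or 0.24 ± 0.15 without that array.

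The secreted proteins of chondrocytes were led by Cytl1, a small cytokine-like protein. It read 13.38 and 13.7 in wild type at 2 weeks, 13.2 and 13.7 at 4 weeks and 14.75 and 14.82 at 6 weeks. In Spade it read 13.59 and 12.83, then 13.56 and 13.47, then 14.39 and 13.95. All 6-week arrays of either genotype lay above all earlier ones. The rise from 2 to 6 weeks was 2.37-fold in wild type (adjusted p = 0.036 in limma) and the Spade difference was 0.96 ± 0.26 (adjusted p = 0.051), or 0.58 ± 0.24 without Spade 2-week replicate 3 (adjusted p = 0.17).

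Ucma, a Gla-rich matrix protein, read 8.23 and 8.25 in wild type at 2 weeks and 9.65 and 9.40 at 6 weeks, and 8.36 and 4.20, then 8.63 and 8.09 in Spade. Spade 2-week replicate 3 lay far below every other array. Its wild-type difference of 1.29 had an adjusted p of 0.48 with Spade 2-week replicate 3 in the limma fit and 0.020 without it, and its Spade difference was 2.08 ± 1.02 with that array and 0.0 ± 0.31 without it. Averaged over the genotypes Ucma passed without that array, at 0.65 (adjusted p = 0.046). Cnmd, or chondromodulin, an inhibitor of vessel growth, and Mia, a protein secreted by chondrocytes and melanoma cells, differed by 0.54 ± 0.25 and 0.26 ± 0.34 averaged over the genotypes and did not pass. Without Spade 2-week replicate 3 Mia turned to -0.13 ± 0.26, so its sign rests on that array.

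Of the SOX trio, the core transcription factors of chondrocytes, 1 passed with age. Sox5 read 6.16 and 6.81 in wild type at 2 weeks, 7.45 and 8.06 at 4 weeks and 8.11 and 8.65 at 6 weeks. In Spade it read 5.90 and 5.64, then 7.78 and 7.69, then 8.0 and 7.57. No 2-week array of either genotype reached the lowest later one. The rise to 6 weeks was 3.71-fold in wild type (adjusted p = 0.017 in limma) and 4.04-fold in Spade (adjusted p = 0.012), and 4 probe sets of Sox5 past the filter were all higher at 6 weeks in both genotypes. From 2 to 4 weeks Sox5 rose 3.90-fold in Spade (adjusted p = 0.028), a call lost without Spade 2-week replicate 3 (3.57-fold, adjusted p = 0.053) and under several other settings, and the difference between the genotypes' changes did not pass.

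Sox6, the close relative of Sox5, differed by 0.30 ± 0.16 averaged over the genotypes (adjusted p = 0.19 in limma). Its other probe sets past the filter differed by 0.77, 1.01 and -0.35 in wild type and by 0.36, 0.93 and 0.26 in Spade. Sox9, the factor that starts the chondrocyte programme, read 9.53 and 9.79 in wild type at 2 weeks and 10.27 and 10.53 at 6 weeks, but 10.07 and 10.62 and then 10.11 and 9.69 in Spade. Its changes of 0.75 ± 0.26 in wild type and -0.45 ± 0.26 in Spade had opposite signs, as did those of its second probe set, 0.29 and -0.91. The difference between the changes, -1.19 ± 0.37, did not pass (adjusted p = 0.84 in limma, unadjusted p = 0.011). Without Spade 2-week replicate 3 the Spade change of Sox9 was -0.17 ± 0.29 and the difference between the changes -0.92 ± 0.37 (adjusted p = 0.78). Sox9 is also made by hair follicle cells, whose markers were high on Spade 2-week replicate 3, and their part in the value was not tested.

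Among the receptors and enzymes 2 members passed averaged over the genotypes. Itga10, the integrin subunit by which chondrocytes hold type II collagen, read 5.52 and 6.11 in wild type at 2 weeks and 7.22 and 7.14 at 6 weeks, and 5.78 and 4.70, then 7.17 and 6.14 in Spade. It rose 2.62-fold averaged over the genotypes (adjusted p = 0.011 in limma). In wild type alone Itga10 passed without Spade 2-week replicate 3 (adjusted p = 0.034 against 0.088), as did Fgfr3 (0.020 against 0.11). Fgfr3, a receptor that slows the growth of growth-plate chondrocytes, was 0.40 ± 0.11 higher by its brighter probe set (adjusted p = 0.028), while its second probe set was 2.22 lower in wild type and 1.67 lower in Spade, so the gene has no settled direction. Pth1r, the receptor for parathyroid hormone and its related peptide, differed by -0.19 ± 0.21, or 0.06 ± 0.14 without Spade 2-week replicate 3, so its sign rests on that array.

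Papss2, which makes the sulfate donor for aggrecan, differed by -0.06 ± 0.21 averaged over the genotypes, and Chst11, a chondroitin sulfotransferase, by 0.32 ± 0.17. Wwp2, a ubiquitin ligase whose gene hosts a cartilage microRNA, differed by 0.27 ± 0.11. None of these 3 passed (adjusted p = 0.84, 0.19 and 0.10 in limma). The other probe sets of Papss2 that passed the filter differed by -0.84 and -2.08 in wild type.

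**Figure D3:**
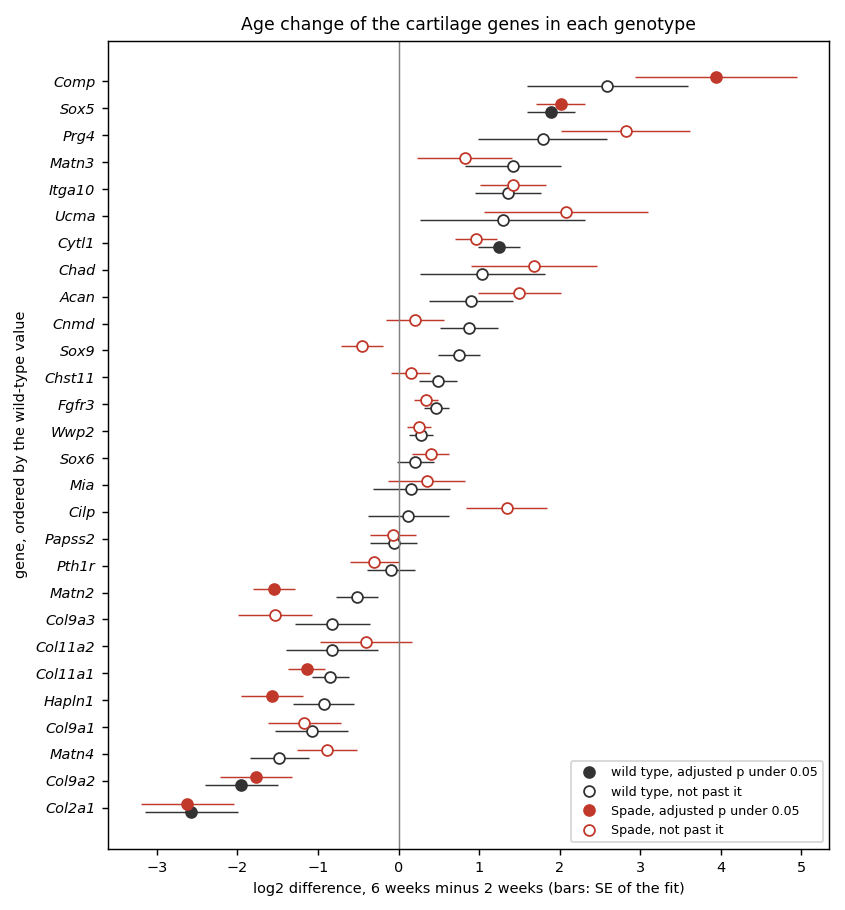
Log2 difference between 6 and 2 weeks (horizontal axis; bars are the SE of the limma fit) for the 28 tested cartilage genes, in wild type (black) and Spade (red); filled points have an adjusted p under 0.05. Sox5 lies near 2 in both genotypes and Col2a1 near -2.6, and the Spade values of Comp and Ucma, which rest on a low 2-week array, lie farther right than those of wild type.

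Shorter intervals gave fewer calls. From 2 to 4 weeks 0 members passed in wild type, where 0.459% of all genes did, with 5 members at an unadjusted p under 0.05 against 14.6% of all genes, and 1, Sox5, passed in Spade, where 1.91% of all genes did. From 4 to 6 weeks 0 members and 0 genes in all passed in either genotype by limma, or 0.0%, with 4 members in wild type and 3 in Spade at an unadjusted p under 0.05, against 7.11% and 4.46% of all genes. Cytl1 had the lowest p from 4 to 6 weeks in wild type, at a difference of 1.33 ± 0.26 (adjusted p = 0.65).

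By overlap of arrays, 14 members were wholly higher and 9 wholly lower at 6 than at 2 weeks in wild type, where 40.3% and 20.7% of all genes were. In Spade 8 were wholly higher and 8 wholly lower, where 36.2% and 17% of all genes were. Over both genotypes, 4 arrays against 4, Comp, Sox5, Cytl1, Prg4 and Itga10 were wholly higher, where 18.5% of all genes were, and Col2a1, Col9a2, Col11a1, Matn2 and Matn4 wholly lower, where 7.08% were. The difference between the genotypes' changes from 2 to 6 weeks passed for 0 members and 0 genes in limma, or 0.0%, with 2 members, Matn2 and Sox9, at an unadjusted p under 0.05, against 5.46% of all genes. Likewise 0 members and 0 genes passed for the difference from 2 to 4 weeks, with 0 members at an unadjusted p under 0.05, against 2.76% of all genes.

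Related genes gave a setting for the age changes. Their counts stand beside the 3.31% of all genes that were called higher and 1.51% lower in wild type, and 7.58% and 2.36% in Spade. Of 18 elastic fibre genes tested from a list of 21, 5 fell in wild type and 6 in Spade, with medians of -0.87 and -0.80. Without Spade 2-week replicate 3 these counts moved apart, and the Spade median was -0.74. Fbn2, the fibrillin of growing tissue, fell 7.64-fold in wild type (adjusted p = 0.030 in limma) and 11.2-fold in Spade (adjusted p = 0.013). Mfap4 and Mfap2, both microfibril-associated proteins, fell 5.21-fold and 3.75-fold in wild type and 7.63-fold and 3.99-fold in Spade (adjusted p = 0.0092 and 0.019), and Eln, elastin itself, differed by -1.28 ± 0.33 (adjusted p = 0.060). The Spade folds of Mfap4 and Mfap2 were 5.72 and 2.99 without Spade 2-week replicate 3. Dermis also makes elastic fibre genes, and the share of cartilage in their values was not tested.

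Of 20 tested chondrocyte transcription factors and growth signals, 1 rose in wild type and 2 rose in Spade, shares near those of all genes. Gdf5, a BMP-family ligand of joints and cartilage, rose 2.92-fold in wild type (adjusted p = 0.044 in limma) and 2.55-fold in Spade (adjusted p = 0.044), and Sfrp5, a secreted Wnt inhibitor, rose 2.09-fold in Spade (adjusted p = 0.039). Frzb, another of these inhibitors, differed by 0.98 ± 0.97 in wild type (adjusted p = 0.59). Of 23 glycosaminoglycan and sulfate pathway genes, 1 rose in wild type, and 2 rose and 1 fell in Spade, again near the shares of all genes. Slc26a2, the sulfate transporter whose loss causes chondrodysplasia in humans, rose 1.51-fold in wild type (adjusted p = 0.048) and 1.76-fold in Spade (adjusted p = 0.014). Fam20b, a kinase of the glycosaminoglycan linkage, rose 1.59-fold in Spade (adjusted p = 0.014). Chsy3, a chondroitin synthase, fell 5.85-fold in Spade (adjusted p = 0.048) and differed by -2.35 ± 0.67 in wild type (adjusted p = 0.079).

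Of 14 tested matrix proteases and inhibitors, 1 rose and 2 fell in wild type, and 1 rose and 1 fell in Spade. Timp3, which blocks aggrecan-cutting proteases, rose 2.00-fold in wild type (adjusted p = 0.041 in limma) and 2.30-fold in Spade (adjusted p = 0.018). Adamtsl2, a microfibril-binding protein, fell 3.68-fold in wild type (adjusted p = 0.048), as did Timp1, another inhibitor, 3.45-fold (adjusted p = 0.031), and Adamts9, a protease that cuts aggrecan and versican, fell 3.78-fold in Spade (adjusted p = 0.024). Among 15 other cartilage matrix genes 0 passed in wild type and 2 in Spade, where Vcan, or versican, fell 4.01-fold (adjusted p = 0.043) and Col12a1, a fibril-associated collagen, fell 2.49-fold (adjusted p = 0.037). Of 16 hypertrophy, mineral and bone genes 12 were on the array, and the 3 that passed the level filter held 0 calls in wild type and 1 in Spade, Col1a1, at -0.89 ± 0.22 (adjusted p = 0.040). Of 13 perichondrium, tendon and fibrous tissue markers 3 fell in wild type and 1 in Spade, and Kera, the corneal and tendon proteoglycan keratocan, fell in both, 3.26-fold and 2.95-fold (adjusted p = 0.032 and 0.028). Tnxb, a tenascin, and Postn, or periostin, fell 2.55-fold and 1.39-fold in wild type (adjusted p = 0.019 and 0.049). Without Spade 2-week replicate 3 the Spade calls of Gdf5, Sfrp5, Chsy3, Mfap2, Timp3, Adamts9, Vcan, Col12a1, Col1a1 and Kera were lost, with adjusted p of 0.051 to 0.15 in limma and the same directions, while Eln, Frzb and Chsy3 were among those that then passed in wild type, at 0.035, 0.038 and 0.0047. The Spade folds of Chsy3, Adamts9, Vcan and Fbn2 were then 2.40, 2.51, 2.66 and 7.34, and Fbn2 still passed (adjusted p = 0.037).

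Markers of other cell types moved over the same interval. Adipocyte markers rose, 8 of 13 tested in wild type and 9 in Spade (10 and 6 without Spade 2-week replicate 3), and their mean log2 level ran from 8.25 to 9.37 at 2 weeks and from 10.45 to 11 at 6 weeks. Those with the largest changes were Lep, Cidec and Retn, at 19.71-fold, 9.35-fold and 9.35-fold in wild type and 6.52-fold, 12.37-fold and 11.54-fold in Spade (adjusted p = 0.010 to 0.029 in limma). Of 25 muscle markers 1 rose in wild type, Tnnt1, 3.06-fold (adjusted p = 0.036), and 4 in Spade, led by Mb, Tcap and Ryr1 at 49.93-fold, 13.89-fold and 5.71-fold (adjusted p = 0.022, 0.049 and 0.029). Those 3 Spade values were 9.98-fold, 3.22-fold and 3.00-fold without Spade 2-week replicate 3, and Ryr1 and Lep, the latter at 4.87-fold, then missed the threshold in Spade (adjusted p = 0.060 and 0.087), while Cidec and Retn passed at 6.41-fold and 5.99-fold. In wild type Mb and Tcap passed in that fit, at 10.91-fold and 3.29-fold. Of 12 dermal fibroblast markers 0 passed in wild type and Col1a1 alone in Spade, and of 14 macrophage markers 0 passed in wild type and Cd14 alone in Spade, at 2.12-fold (adjusted p = 0.036, or 0.063 without that array). Hair markers had medians of -1.90 in wild type and -5.31 in Spade, the latter -1.14 without Spade 2-week replicate 3, with 1 of 18 higher in wild type, Gata3, 1.88-fold (adjusted p = 0.014 in limma), and in Spade Gata3 higher, 1.51-fold (adjusted p = 0.033), and Krt73 lower, 71.21-fold (adjusted p = 0.048) or 7.57-fold without Spade 2-week replicate 3 (adjusted p = 0.047), when it passed in wild type too, 7.79-fold lower (adjusted p = 0.020). Of 11 epidermis markers 0 passed in either genotype, with medians of 0.08 and 0.09, and Krt1, a keratin of the upper epidermis, differed by -0.75 ± 0.32 and -0.87 ± 0.32. Markers with large differences that did not pass in Spade included Thrsp of adipocytes, 1.92 ± 0.55, Myh2 of muscle, 3.57 ± 1.25, Krt33a of hair, -7.21 ± 2.08, C1qb of macrophages, -0.76 ± 0.34, and Col5a1 of fibroblasts, -0.48 ± 0.31. With Spade 2-week replicate 3 left out these values were 0.94, 1.05, -3.36, -0.35 and -0.32. All 25 muscle and all 12 fibroblast markers tested were called present on 12 arrays, as were 10 of the 13 adipocyte and 4 of the hair markers. The part of tissue makeup in the age changes of the cartilage genes was not tested.

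Between genotypes no cartilage gene passed the test. At 6 weeks the members leaned to lower values in Spade ears: 0 of 28 passed in limma, where 0.0334% of all genes did, and 7 had an unadjusted p under 0.05, where 11.9% of all genes had. Their median was -0.54 and 25 of 28 were below 0, where the median of all genes was -0.04 and 55.9% were below 0. These values are of the brightest probe sets. In 13 members with more than 1 probe set past the filter, all shared a sign in 9 at 2 weeks, 7 at 4 and 11 at 6. Fgfr3 differed at 6 weeks by -0.45 on its brighter probe set and by 0.73 on its second. By overlap of arrays 15 members were wholly lower and 0 wholly higher in Spade, where 25.7% and 19.8% of all genes were.

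**Figure D4:**
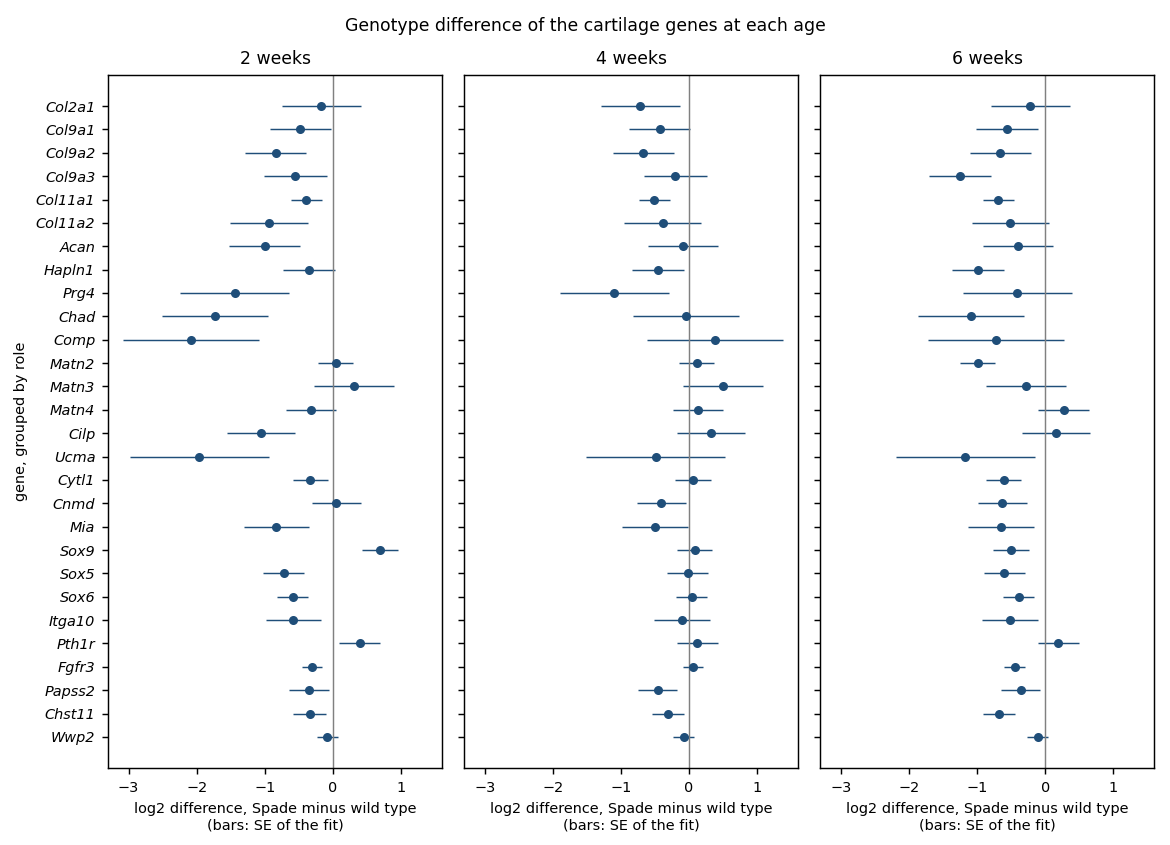
Log2 difference, Spade minus wild type (horizontal axis; bars are the SE of the limma fit), for the 28 tested cartilage genes at 2, 4 and 6 weeks. At 6 weeks 25 of 28 points lie left of 0, at 4 weeks 18 do, and at 2 weeks the points farthest left are Comp, Ucma and Chad. The bar of a gene has the same length at each age.

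The largest 6-week differences were spread over roles. Matn2 differed by -0.99 ± 0.26 (adjusted p = 0.21 in limma), from a mean log2 level of 11.66 in wild type to 10.67 in Spade, and its second probe set by -0.22. Col9a3 read 11.31 and 11.41 in wild type and 10.33 and 9.89 in Spade, a difference of -1.25 ± 0.46 (adjusted p = 0.34), and its second probe set differed by -0.49. Ucma, Chad and Hapln1 differed by -1.17 ± 1.02, -1.09 ± 0.78 and -0.99 ± 0.38, and the 4 probe sets of Hapln1 by -0.87 to -1.66.

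All 6 tested collagens were below 0 at each age, with medians of -0.51 at 2 weeks, -0.47 at 4 weeks and -0.61 at 6 weeks. Without Spade 2-week replicate 3 the 2-week median was -0.10, and Col9a1 and Col9a3 were above 0, at 0.24 ± 0.38 and 0.21 ± 0.36. None passed, and the closest was Col11a1, at -0.53 ± 0.13 averaged over the ages (adjusted p = 0.12 in limma), lower on both Spade arrays than on both wild-type arrays at 4 and at 6 weeks. Its second probe set differed by -0.21, -0.07 and 0.09 at the 3 ages. Averaged over the ages 0 members passed, where 0.643% of all genes did, 10 had an unadjusted p under 0.05, where 14.8% of all genes had, and the median was -0.42 against -0.03 for all genes.

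The 6-week lean depended on which Spade array was read. Spade replicate 4 lay below Spade replicate 3 for 25 of 28 members, by a median of 0.48, where the median of all genes was -0.08 on the same scale. Without replicate 4 the median difference from wild type was -0.29, and without replicate 3 it was -0.86. Wild-type arrays differed too, replicate 3 being higher than replicate 1 for 23 members. The wild-type array in the same range of description numbers as the Spade arrays was this higher replicate 3. Set against it alone, 28 of 28 members were below 0 with a median of -0.70. The median of all genes was then -0.05 and 57.6% were below 0. A matched range and the use of the higher array cannot be told apart here. The matching 4-week values were 16 of 28 and a median of -0.08, where 50.9% of all genes were below 0. These are values with no test.

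At 2 weeks 0 of 28 members passed, where 0.0% of all genes did in limma, 3 had an unadjusted p under 0.05, where 8.11% of all genes had, and the median was -0.43. That median rested on Spade replicate 3, which was lower than Spade replicate 2 for 22 members and by 1 or more on the log2 scale for 12 of them. Ucma read 8.36 on replicate 2 and 4.20 on replicate 3, and Chad read 12.2 and 9.14. Without replicate 3 the median was -0.07, equal to that of all genes, and 0 members passed, where 0.0167% of all genes did. With replicate 3 alone, its partner being left out, 9 members passed, where 9.9% of all genes did.

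By overlap at 2 weeks, 10 members were wholly lower and 1, Sox9, wholly higher in Spade, where 22.4% and 12.9% of all genes were. Muscle markers were low on the same array, with a median genotype difference of -1.26 and 25 of 25 below 0, and hair markers high, with a median of 2.66 and 17 of 18 above 0. Without that array the medians were -0.15 and -0.60. Their part in the cartilage values was not tested.

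At 4 weeks 0 of 28 members passed, where 0.0% of all genes did in limma, and 0 had an unadjusted p under 0.05, where 3.60% of all genes had. The median was -0.10 against -0.01 for all genes. By overlap 7 members were wholly lower and 2, Cilp and Fgfr3, wholly higher in Spade, where 15.9% and 16.1% of all genes were. The rank product criterion that the series' design text names called 0 members at each age and for the ages together. Of all 11984 genes it called 2 higher and 1 lower at 2 weeks, 15 and 1 at 4 weeks and 48 and 5 at 6 weeks. For the ages together it called 87 higher and 16 lower.

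Macrophage markers had median differences of 0.54, 0.46 and 1.06 at the 3 ages, the first 0.20 without Spade 2-week replicate 3, and 14 of 14 were above 0 at 4 and at 6 weeks, though 0 passed at a single age. Averaged over the ages 3 of the 14 passed, where 0.643% of all genes did, C1qa and C1qc, chains of complement C1q, at 1.80-fold and 1.75-fold (adjusted p = 0.029 in limma for both), and Csf1r, the receptor that macrophages need to survive, at 1.57-fold (adjusted p = 0.027). Of the 14 markers 12 were called present on all arrays. At 6 weeks their mean log2 level was 9.40 and 8.91 in wild type and 10.33 and 10.13 in Spade. In the same groups the mean of the cartilage members was 10.17 and 10.51, and 10.08 and 9.54. The related lists of cartilage matrix, elastic fibre, sulfation and protease genes held 0 calls between genotypes at each age, with 6-week medians of -0.32, -0.23, -0.12 and 0.16. Hair and muscle medians were -0.50 and -0.23 at 6 weeks. The part of tissue makeup in the genotype values was not tested.

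**Figure D5:**
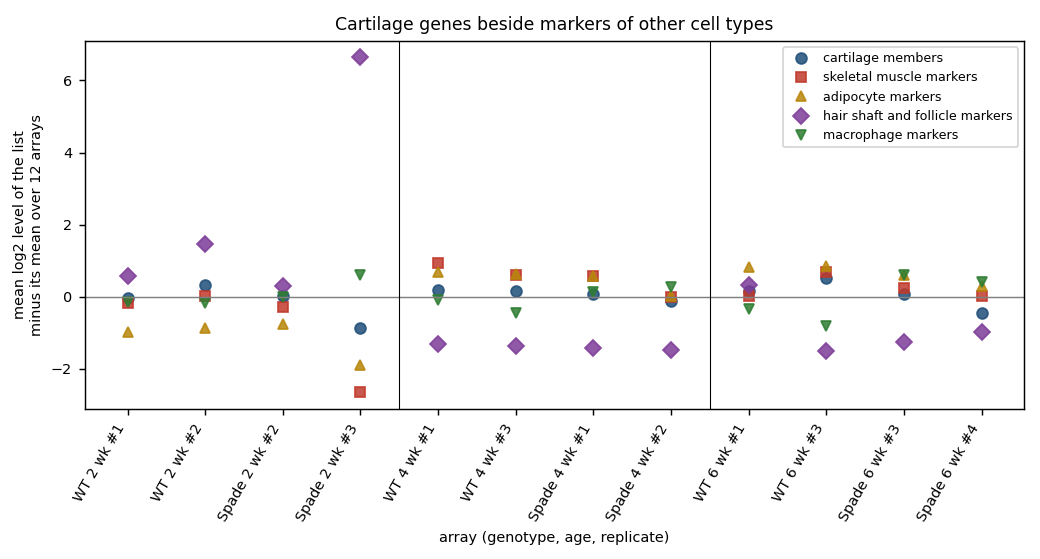
Mean log2 level of the cartilage members and of 4 marker lists on each of the 12 arrays, minus the list's mean over the arrays. Spade 2-week replicate 3 is lowest for cartilage, muscle and fat and highest for hair, and Spade 6-week replicate 4 is the next lowest for cartilage.

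Among themselves the members did not follow 1 pattern over the 12 arrays. Mia lay closest to the mean of the members after centring, at r = 0.97 and 0.93 without Spade 2-week replicate 3, followed over 12 arrays by Chad at 0.89, Ucma at 0.85 and Acan and Fgfr3 at 0.84. Over 11 arrays Chst11 was second, at 0.87 against 0.83 over 12. Col2a1 lay at -0.02 and 0.30, and Pth1r at -0.47 and 0.08. These are descriptions over arrays that share age and genotype. The mean includes the member itself, which raises its r, and the levels were not scaled, so members that vary most weigh most.

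Outside the lists, the gene most like the member mean over 12 arrays was Pdgfc, a platelet-derived growth factor, at r = 0.97, and it stayed at 0.928 over 11 arrays. Gpc6, a glypican, at 0.949, Ecrg4 at 0.946 and Sparcl1, a matricellular protein, at 0.940 came next, then Pla2g5, Fap, Fxyd1, Tmem52, Atp1b2 and Mustn1 down to 0.928. Over 11 arrays the order was Bambi, a decoy receptor of TGF-beta signals, at 0.975, then Fmnl2, Ift80, Spred2, Pdgfc, Arhgef25, Sparcl1, Taf2, Dync1i1 and Lrrk2 down to 0.907. Only Pdgfc and Sparcl1 were in both sets of 10.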

How the data were processed

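Total RNA of whole ear was measured on 12 Affymetrix expression arrays of 45101 probe sets, 2 in each of 6 groups of genotype and age. Per the series' design text, the authors normalized the arrays with GCRMA, and these deposited log2 values, from 2.14 to 16.64, were used for all main tests. Intensity values, deposited by the authors for each array as MAS5 signals per the submitters' processing notes, served for detection calls and, with a floor of 50 and a log2 step, as an alternative. The share of probe sets with a present call was 52.3% to 58.1% by array. The number of arrays limits the precision.

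The platform annotation gave 1 gene to 34958 probe sets, several to 932 and none to 9211. Among probe sets naming only that gene, the one brightest on average stood for it. Genes were fitted with limma 3.58.1 (R 4.3.3) on all 12 arrays, as 6 group means with 6 residual degrees of freedom and variances that follow the mean level. Genes past 4 on at least 2 arrays, 11984 in all, shared one Benjamini-Hochberg adjustment, and an adjusted p under 0.05 was called. Errors are the standard errors of that fit, and fold changes are powers of 2 of its differences. Rank products used 1000 permutations, a 2-fold difference and a false discovery rate under 0.05, or 0.001 for the ages together, and both methods were tested on simulated data. Tables and figures were made with Python 3.11.15, pandas 2.3.3, numpy 2.4.6 and matplotlib 3.10.9. Promoter windows are RefSeq's, build GRCm38.p6.

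Every member is accounted for. Of each related or marker list at most 3 called genes and at most 2 others are named, by largest change, and outside the lists the 10 genes most like the member mean. Members and lists were chosen with earlier results of these data known. The age change averaged over the genotypes and the other probe sets were added after seeing the data. The labels do not say whether replicate numbers mark shared animals. In the only compared groups that share both numbers, wild type at 4 and 6 weeks, deviations correlated at 0.034 over all genes and -0.343 over the members, and the samples were not treated as paired.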

Additional observations from a re-analysis of the deposited data

How the results depend on the processing

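No member passed between genotypes under any of the alternatives that kept all arrays of the compared groups, which were MAS5 signals, other filters, averaged probe sets, median centring, quantile normalization, no variance trend, array weights, a term for the range of description numbers, a random replicate block, the compared groups only, a 2-fold minimum and rank products. With each array left out in turn, members passed only without Spade 2-week replicate 2, at 2 weeks and averaged over ages. Genes over the whole array passed in greater number there too. Over all these fits the member medians ran from -0.76 to -0.07 at 2 weeks and from -0.86 to -0.29 at 6 weeks. The calls with age moved more. For wild type from 2 to 6 weeks, 4 became 1 with no filter, 10 with array weights, 1 with the range term and 0 to 13 with an array left out, 13 being the count without either 2-week Spade array and 0 without any one of the 2-week or 6-week wild-type arrays. For Spade from 2 to 6 weeks, 7 became 2 with no filter, 3 with the mean of probe sets, 0 with array weights, 0 with the range term, 0 with the compared groups only and 0 to 14 with an array left out (0 without either 6-week Spade array, 14 without 2-week Spade replicate 2). From 2 to 4 weeks in Spade, 1 became 0 with MAS5 signals, no filter or the mean of probe sets. Genes in all went from 229 to 112, 133 and 145 there. Array weights or the compared groups only left 0 members and 0 genes. The member count rose without 2-week Spade replicate 2 and was unchanged or lost without any other array. Averaged over genotypes, 15 became 2 with the range term, Sox5 and Matn4, and 9 to 19 with an array left out. The range term cannot separate the 2-week arrays from later ones. Calls over all genes moved the same way as the members under these settings. For wild type from 2 to 6 weeks, 578 genes became 371 with no filter, 1848 with array weights and 151 with the range term. For Spade, 1191 became 684 with no filter, 762 with the mean of probe sets and 109 with array weights. The range term left 1 gene there and the compared groups only 0. Averaged over genotypes, 2885 became 280 with the range term. Differences between the genotypes' changes passed for members only without Spade 2-week replicate 2, where more genes in all passed too. Their medians ran from -0.40 to 0.29 from 2 to 6 weeks and from -0.06 to 0.67 from 2 to 4 weeks (0.05 with MAS5 signals). Member medians with an array left out ran from 0.03 to 0.38 in wild type from 4 to 6 weeks, from -0.15 to 0.43 in Spade from 2 to 6 weeks and from -0.42 to 0.10 in Spade from 4 to 6 weeks. With the mean of probe sets the median was -0.10 in wild type from 2 to 4 weeks and 0.06 from 2 to 6 weeks averaged over genotypes, where Fgfr3 turned to -0.77. The random replicate block gave the same counts as the fit without it, 4 in wild type and 7 in Spade from 2 to 6 weeks and 15 averaged over genotypes. A group left with 1 array was assumed to vary like the others, and the cause of these shifts was not tested. Low signal limits Matn3, Prg4 and Itga10, and leaves 5 members untested.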
